A study of Homo sapiens with 12 samples.

Results

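MEF2C knockout cells treated with lipopolysaccharide (LPS) and BMS265246 were compared with knockout cells given vehicle, to describe the net state after both treatments. The members are 5 of the 12 libraries of the series, chosen by their labels: 3 libraries of resting knockout cells (KO) and 2 of knockout cells with LPS and the compound (KO LPS BMS). In the treated cells inflammatory cytokine, chemokine and NF-kB genes stayed far above the resting level. Most genes of DNA replication and mitosis and most histone genes lay below it, and immediate early genes were found on both sides. Most lysosomal, respiratory chain and homeostatic microglial genes were within 1.5-fold of it.

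All cells were induced microglia-like cells (iMGLs), which resemble the resident macrophages of the brain and were differentiated from human pluripotent stem cells of the H1 line. The other groups were WT and WT LPS (wild-type cells, 3 libraries with vehicle and 2 with LPS) and KO LPS (2 libraries of knockout cells with LPS alone). The series title names CDK2 inhibition, CDK2 being a kinase that BMS265246 targets, and LPS-treated knockout cells were the model of overactivation. Cells were dissociated before RNA extraction. No library held the compound without LPS, so the parts of LPS and of the compound cannot be told apart within this comparison. The sources used here give no dose, time, kind of edit or number of clones. The labels call the libraries biological replicates without saying whether the cultures were differentiated separately, so p-values measure the spread between these libraries.

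As background, LPS of the bacterial outer membrane is recognised by TLR4 with its partners CD14 and MD-2. The adaptors MYD88 and TRIF then lead to NF-kB and to interferon-regulatory factors, which switch on cytokines, chemokines and, in turn, the genes that end the response. CDK2 pairs with cyclins E and A and drives cells through S phase. Other members of the kinase family, with cyclins T, K and L, act in transcription and splicing and not in the cell cycle.

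Levels are normalised read counts in CPM, the count relative to the TMM-scaled library total, given as mean ± SD over 3 KO libraries and 2 libraries of each LPS group. Changes are log2 fold changes ± SE, KO LPS BMS against KO, with p-values adjusted over 16022 genes from edgeR's quasi-likelihood test. A gene is called at an adjusted p under 0.05. It is far from the resting level when it is called and differs by at least 2-fold, and at the resting level when the 95% interval of its log2 fold change lies within 1.5-fold either way, whatever its p. All other genes are called between. With 3 libraries against 2 there are 10 ways to split them, so an exact permutation test of a single gene cannot give a p under 0.1, and all tests rest on the fit across genes.

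Total counts were 13888283 to 16806798 in KO and 14575747 to 17591433 in KO LPS BMS. A count of 0 in 1 library allows up to 0.161 to 0.236 CPM, a bound that covers counting error only. The microglial and macrophage markers were present in all 5 libraries (summed level 7932 to 8238 CPM in KO and 8777 to 9458 CPM in KO LPS BMS). Mitochondrially encoded transcripts took 1.03% to 1.21% of the counts in KO and 1.36% to 1.69% in KO LPS BMS, and all 13 were called higher (median log2 fold change 0.79). That share moved with every result below, and its part in them was not tested. Heat shock and dissociation genes summed to 3933 to 4002 CPM in KO and 3620 to 3646 CPM in KO LPS BMS, with 3 of 13 called higher and 6 lower.

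MEF2C itself was still transcribed in the knockout cells. The 3 KO libraries held 136, 129 and 135 CPM against 45.9 and 46.8 CPM in KO LPS and 43.7 and 44.1 CPM in KO LPS BMS. The 2 treated libraries lay below every resting one, 3.04-fold on average (-1.60 ± 0.06, adjusted p = 2.45e-15, edgeR), and next to those with LPS alone. Gene counts do not show whether the transcripts of the edited gene encode a protein.

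The test called 10052 of 16022 genes, 4861 higher (30.3%) and 5191 lower (32.4%). Far from the resting level were 3627 genes, 1589 higher (9.92%) and 2038 lower (12.7%). Among the far genes 549 were at least 4-fold higher and 481 at least 4-fold lower. In 3613 of the 3627 the libraries of the groups did not overlap. The same held for 4840 of the 4861 genes called higher and 5168 of the 5191 called lower. Lack of overlap thus largely restates the call and is no further support for it. At the resting level were 4603 genes (28.7%), 1985 of which were called for small differences. The remaining 7792 lay between. Counts of the gene lists below are to be read against these shares of all genes. The sign of a small change depends on the scaling. With library size alone the median log2 fold change of all genes shifted by -0.336, and 26.1% of the calls were higher in place of 48.4%, against 40.8% with upper-quartile factors. In bulk RNA, fewer cells of a type and less RNA per cell cannot be told apart.

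Which LPS genes were far from rest was read from genes chosen in wild-type cells, since WT LPS against WT shares no library with the comparison. There, 1343 genes rose at least 2-fold (8.38% of all tested) and 1883 fell as far (11.8%). Of the 1343 that LPS raised in WT, 745 (55.5%) were far above the resting level in KO LPS BMS, against 9.92% of all genes. A further 474 (35.3%) lay between, 100 (7.45%) were at the resting level, and 24 (1.79%) were far below it. Their median log2 fold change was 1.19, against -0.06 for all genes tested. Of the 1883 that LPS lowered in WT, 792 (42.1%, against 12.7% of all genes) were far below the resting level in KO LPS BMS. A further 907 (48.2%) lay between, 158 (8.39%) were at the resting level and 26 (1.38%) were far above it. The median of the 1883 was -0.89. The share at the resting level was thus lower in both sets than the 28.7% of all genes. A gene that LPS moved in WT need not have moved as far in KO. There, LPS alone raised 1040 genes and lowered 750 at least 2-fold.

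**Figure D1:**
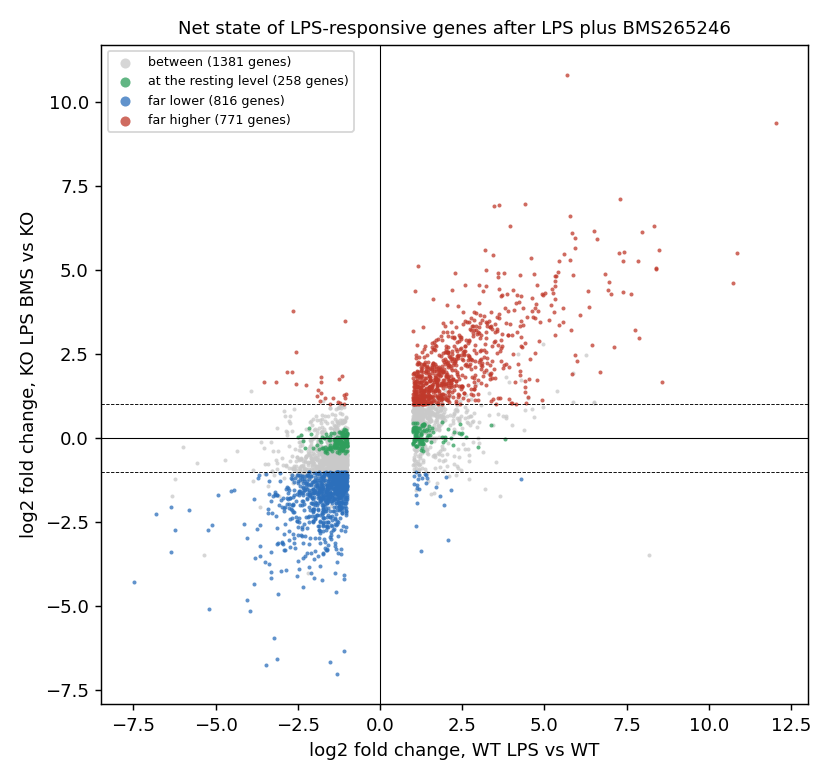
Each point is 1 of the 3226 genes that changed at least 2-fold with LPS in WT cells, with its log2 fold change in WT LPS vs WT on the x axis and in KO LPS BMS vs KO on the y axis. Colours give the net state, dashed lines mark 2-fold, and most points lie in the upper right and lower left: 745 of the raised genes were far higher and 792 of the lowered genes far lower.

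The same reading with genes chosen in KO LPS against KO, which shares the KO libraries, gave 1040 raised genes (6.49% of all tested), of which 696 (66.9%) were far higher and 44 (4.23%) at the resting level. Of the 750 lowered there (4.68%), 451 (60.1%) were far lower and 24 (3.2%) at the resting level. Both comparisons use the KO libraries, so this reading is not independent of them.

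Cytokines of the LPS response stayed high. IL1B (ENSG00000125538, chromosome 2, 112829751 to 112836903), the fever-inducing interleukin-1 beta, was at 130, 118 and 117 CPM in KO and at 3477 and 3358 CPM in KO LPS BMS. Both treated libraries lay far above the resting ones, 28.1-fold (4.81 ± 0.06, adjusted p = 4.49e-24), and below the 4689 and 4612 CPM of KO LPS. IL6 (chromosome 7, 22725884 to 22732002) stood at 3.03, 2.91 and 2.47 CPM in KO and at 70.7 and 68.6 CPM after both treatments. It remained 24.9-fold above rest (4.64 ± 0.12, adjusted p = 4.94e-20), with KO LPS at 257 and 247 CPM. For TNF, the first cytokine of the cascade, the values were 4.19, 5.59 and 5.75 CPM in KO and 54.9 and 47.6 CPM in KO LPS BMS. The treated libraries lay beside those with LPS alone (44.1 and 48.7 CPM) and 9.79-fold above rest (3.29 ± 0.14, adjusted p = 4.04e-15). IL12B, a subunit of interleukin-12 and interleukin-23, had no count in KO and reached 11.7 and 15.2 CPM, at least 69.55-fold higher against a floor of 3 counts per library. INHBA, a subunit of activin, was at 410 ± 16.5 CPM in KO LPS BMS and 122 ± 2.05 CPM in KO LPS (4.91 ± 0.07 against KO).

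Of 17 tested pro-inflammatory cytokine genes, 13 rose and 1 fell, and 11 were far higher (median 2.79, against -0.06 for all genes). OSM, a cytokine of the interleukin-6 family, was the one that fell (-0.91 ± 0.11), and LIF was the one at the resting level (0.37, interval 0.19 to 0.55). LIF moved to between with the DESeq2 Wald test and without KO replicate 1, KO replicate 2 or KO LPS BMS replicate 1. Among 28 chemokine genes, 24 rose and none fell, and 23 were far higher (median 3.23, or 3.10 with the gene at 0 in KO set to its bound). CCL20, which attracts dendritic cells and lymphocytes, went from 1.29, 0.95 and 1.18 CPM to 164 and 155 CPM (7.12 ± 0.16, adjusted p = 3.48e-23). The neutrophil attractant CXCL8 went from 294, 257 and 265 CPM to 6255 and 6212 CPM (4.52 ± 0.06, adjusted p = 4.91e-19). CCL4 rose from 8.69 ± 0.479 to 530 ± 13.2 CPM (5.93 ± 0.11), though its near-identical relative CCL4L2 makes its count uncertain. CCL2, a monocyte attractant already at 411 ± 6.34 CPM in KO, stood at 850 ± 51 CPM (1.05 ± 0.06, adjusted p = 1.99e-11), on the edge of 2-fold. It stayed called but was under 2-fold without KO LPS BMS replicate 1, with library size alone or upper-quartile factors, and with the replicate number as a block. CXCL10, an interferon-induced chemokine, had 1.29, 2.35 and 1.77 CPM in KO and 4.81 and 4.12 CPM in KO LPS BMS. The groups did not overlap, but the gene did not pass the test (1.28 ± 0.59, adjusted p = 0.0909, edgeR), beside 36.2 and 35.9 CPM in KO LPS. It passed when only the 5 libraries compared were fitted (1.304 ± 0.24, adjusted p = 5.8e-05, edgeR). The eosinophil attractant CCL24 was at the resting level (0.08, interval -0.10 to 0.26).

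NF-kB genes stayed far above rest. Of 25 tested subunits and feedback genes, 23 rose and none fell, and 21 were far higher (median 2.27). TNFAIP3, which encodes the ubiquitin-editing inhibitor A20, went from 76.0, 80.5 and 81.5 CPM in KO to 875 and 904 CPM in KO LPS BMS (3.49 ± 0.05, adjusted p = 3.48e-23), above the 775 and 797 CPM of KO LPS. NFKBIA, the inhibitor that holds NF-kB in the cytoplasm, rose from 137 ± 3.92 to 662 ± 53.7 CPM (2.27 ± 0.06). TNIP3, a partner of A20, had 3 counts in all KO libraries together and 1217 in KO LPS BMS, a count ratio of 747 (95% counting interval 255 to 3628). The subunit genes NFKB1 (2.74 ± 0.06), NFKB2 (2.90 ± 0.09) and RELA (1.48 ± 0.09) were far higher as well. IKBKE and NFKBID, a kinase and a nuclear inhibitor of the pathway, were at the resting level (-0.10, interval -0.24 to 0.05, and -0.13, interval -0.39 to 0.13). SOD2, a mitochondrial superoxide dismutase and NF-kB target, was at 313, 306 and 308.5 CPM in KO and 6686 and 6688 CPM in KO LPS BMS, 21.6-fold higher.

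The 250 bases before the start of transcription of 3 of these far-higher genes are shown because they hold matches to the 10-base NF-kB consensus, on either strand, in capitals. The sequences are from RefSeq on GRCh38.p14, 5′ to 3′ on the gene's strand: TNFAIP3 at chr6:137867009-137867258 (plus), CCL20 at chr2:227813592-227813841 (plus) and NFKBIA at chr14:35404750-35404999 (minus).
TNFAIP3: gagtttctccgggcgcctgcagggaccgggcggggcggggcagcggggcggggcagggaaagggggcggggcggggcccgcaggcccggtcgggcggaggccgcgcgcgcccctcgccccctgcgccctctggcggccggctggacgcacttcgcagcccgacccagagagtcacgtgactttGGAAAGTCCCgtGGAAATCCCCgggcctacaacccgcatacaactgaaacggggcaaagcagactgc
CCL20: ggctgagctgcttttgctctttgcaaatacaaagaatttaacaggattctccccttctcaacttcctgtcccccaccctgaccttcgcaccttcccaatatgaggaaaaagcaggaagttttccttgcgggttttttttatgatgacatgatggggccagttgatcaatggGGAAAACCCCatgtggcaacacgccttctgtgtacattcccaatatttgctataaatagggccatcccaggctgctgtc
NFKBIA: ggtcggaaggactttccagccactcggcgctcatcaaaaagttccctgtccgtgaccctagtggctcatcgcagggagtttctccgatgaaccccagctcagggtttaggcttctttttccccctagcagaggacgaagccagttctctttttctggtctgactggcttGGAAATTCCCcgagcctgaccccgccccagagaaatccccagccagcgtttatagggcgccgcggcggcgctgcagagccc
Promoters were available for 11306 of the 16022 tested genes. The consensus was matched in 11.7% of these and in 9.57% of all 27305 promoters of the table. It was matched in 9 of 22 promoters of the NF-kB list and in 10 of 21 of the chemokines. Among genes raised by LPS in WT it was matched in 86 of 508 that were far higher after both treatments (16.9%) and in 10 of 78 at the resting level (12.8%). A match is a description of the letters and does not show binding.

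Receptors and adaptors of the pathway moved in both directions. Of 25 genes of LPS reception and TLR signalling, 14 rose and 9 fell, with 8 far higher, 2 far lower and 6 at the resting level. Of all genes 30.3% rose and 32.4% fell, so the count of falls was near the general share. IRAK2, a kinase of the MYD88 complex, went from 11.7, 12.2 and 10.4 CPM in KO to 240 and 235 CPM in KO LPS BMS, both above the 90.0 and 91.4 CPM of KO LPS (4.37 ± 0.08 against KO). TICAM1, which encodes TRIF, rose from 21.03 ± 1.12 to 142 ± 18.4 CPM (2.76 ± 0.14) and the receptor TLR2 from 342 ± 3.36 to 1603 ± 82.7 CPM (2.23 ± 0.05). The receptors TLR3 (-1.99) and CD180 (-1.84) were far lower, TLR4 was lower at 77.8 ± 5.34 against 142 ± 3.93 CPM (-0.86 ± 0.08), and MYD88 was at the resting level (0.27, interval 0.16 to 0.39). Of 18 inflammasome and gasdermin genes, 6 rose and 8 fell, not far from the shares of all genes. Among them 3 were far higher and 5 far lower, against 9.92% and 12.7% of all genes. P2RX7, the ATP-gated channel that triggers the NLRP3 inflammasome, rose from 34.6 ± 0.506 to 310 ± 10.1 CPM (3.16 ± 0.06). NLRC4, a sensor of bacterial flagellin, fell from 69.5, 63.6 and 68.1 CPM to 13.6 and 12.4 CPM (-2.38 ± 0.09), beside 52.0 and 48.3 CPM in KO LPS. CASP1 (-0.03, not called) was at the resting level, and NLRP3 also (0.38).

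Among 22 anti-inflammatory and feedback genes 15 rose and 2 fell, with 8 far higher and 6 at the resting level. ZC3H12A, a ribonuclease that degrades cytokine transcripts, rose by 3.45 ± 0.16, the phosphatase gene DUSP5 by 3.02 ± 0.07, and IL1RN, the interleukin-1 receptor antagonist, by 2.29 ± 0.06. IL10 stood at 13.7, 9.95 and 10.6 CPM in KO and at 28.8 and 27.5 CPM in KO LPS BMS (1.31 ± 0.11, adjusted p = 1.04e-09), between rest and the 44.8 and 42.4 CPM of KO LPS. Of 20 genes of co-stimulation and dendritic maturation, 13 rose and 5 fell (11 far higher, 2 far lower, 4 at the resting level). The T-cell ligand CD274 (PD-L1) went from 25.9, 25.5 and 25.6 CPM to 479 and 525 CPM (4.29 ± 0.06), above 317 and 312 CPM in KO LPS. CD83, a maturation marker, reached 674 and 675 CPM from 60.4, 64.5 and 61.8 CPM (3.44 ± 0.06), with 286 and 281 CPM in KO LPS. The co-stimulatory gene CD80 rose by 3.32 ± 0.09, while its relative CD86 was at the resting level (-0.13, interval -0.25 to -0.01). CD1D, which presents lipids, fell by 2.77 ± 0.09.

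**Figure D2:**
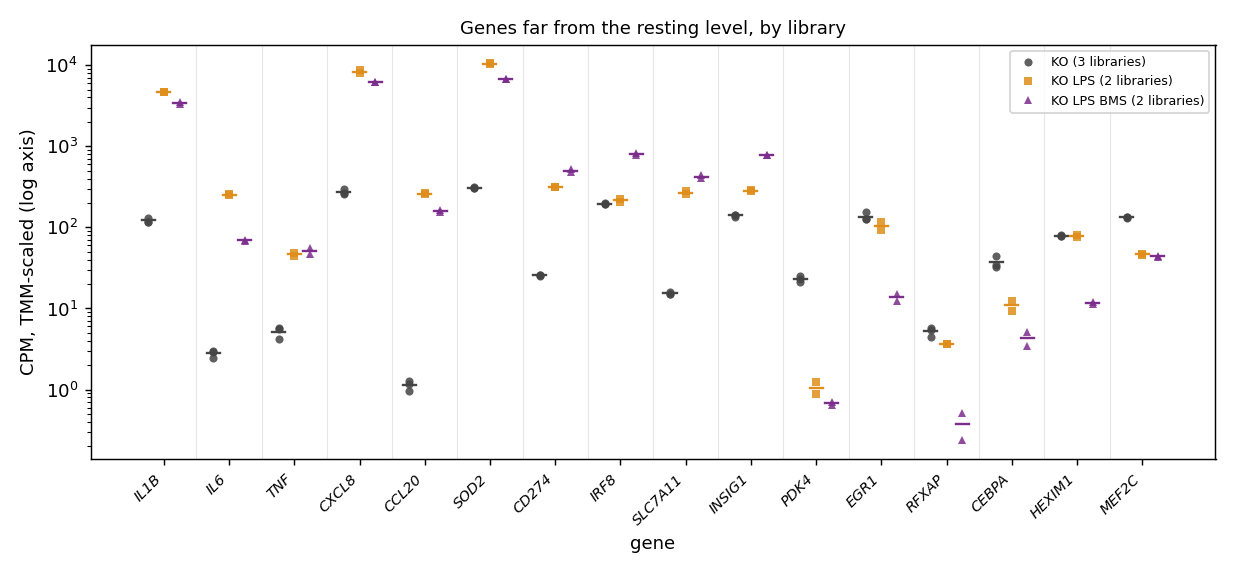
CPM on a log axis for 16 genes far from the resting level, with 1 symbol per library of KO, KO LPS and KO LPS BMS and a short line at each group mean. In all 16 genes the 2 KO LPS BMS libraries lie outside the range of the 3 KO libraries, as for IL1B (3477 and 3358 against 117 to 130 CPM) and HEXIM1 (12.1 and 11.5 against 77.4 to 80.6 CPM).

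Type I interferon-stimulated genes were more often lower than higher, though not all went the same way. Of 35 such genes, 6 rose and 19 fell, against 30.3% and 32.4% of all genes. None was far higher, 4 were far lower and 14 were at the resting level (median -0.28, against -0.06 for all genes). HERC5, a ligase for the ubiquitin-like ISG15, fell from 109, 115 and 113 CPM to 46.1 CPM in both treated libraries (-1.29 ± 0.07), with 62.4 and 60.7 CPM in KO LPS. IFIT3, an antiviral tetratricopeptide protein, was at 238, 225 and 235 CPM in KO and 269 and 243 CPM in KO LPS BMS, at the resting level (0.14, interval -0.14 to 0.41). IFIH1, the RNA sensor MDA5, rose from 112 ± 2.08 to 200 ± 1.07 CPM (0.84 ± 0.06), MX2 fell by 1.76 ± 0.14 and OAS1 by 1.27 ± 0.08. The promoters of IFIT3 (chr10:89327747-89327996, plus) and HERC5 (chr4:88456869-88457118, plus) are shown because both carry matches to the interferon-stimulated response element while their states differ. Capitals mark GAAA, any 2 bases and GAAA again, on either strand, and matches may overlap.
IFIT3: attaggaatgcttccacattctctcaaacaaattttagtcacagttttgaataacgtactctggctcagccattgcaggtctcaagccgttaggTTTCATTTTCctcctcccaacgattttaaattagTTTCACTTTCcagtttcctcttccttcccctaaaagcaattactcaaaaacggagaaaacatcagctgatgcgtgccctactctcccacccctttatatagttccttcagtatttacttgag
HERC5: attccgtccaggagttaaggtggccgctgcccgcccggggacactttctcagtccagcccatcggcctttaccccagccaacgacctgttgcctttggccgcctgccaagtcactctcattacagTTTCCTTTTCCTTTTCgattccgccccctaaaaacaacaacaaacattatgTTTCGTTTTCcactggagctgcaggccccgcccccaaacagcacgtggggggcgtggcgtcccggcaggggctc
The element was matched in 16 of 27 promoters of this list, and in 283 of the 11306 tested genes with a promoter (2.5%). Across those 16 genes the states ran from far lower (HERC5 and SAMD9) through the resting level (IFIT3 and OAS3) to called higher (IFIH1 and IFIT5).

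Of 20 interferon-gamma-type genes, 11 rose and 3 fell, with 8 far higher and 2 far lower (median 1.00). The guanylate-binding protein gene GBP1 rose by 2.20 ± 0.08. Both far-lower members are transactivators of antigen presentation. CIITA, which drives MHC class II, was at 37.7, 40.5 and 39.8 CPM in KO and 13.6 CPM in both KO LPS BMS libraries (-1.54 ± 0.09), equal to the 13.5 and 13.8 CPM of KO LPS within their spread. NLRC5, which drives MHC class I, fell by 1.72 ± 0.11, beside -0.18 in KO LPS against KO. Of 14 MHC class II genes, 10 rose and 3 fell, with HLA-DQA1 (1.02 ± 0.07) and HLA-DQB1 (1.10) far higher, CIITA far lower and 5 at the resting level. HLA-DQA1 was under 2-fold with library size alone, upper-quartile factors or the replicate block, and without KO replicate 2 or KO LPS BMS replicate 1. HLA-DQA2, a class II gene outside the list, was among the largest rises, from 0.123 ± 0.117 to 5.07 ± 0.522 CPM (5.36 ± 0.58). RFXAP, a subunit of the factor through which CIITA acts, fell 13.1-fold (-3.72 ± 0.42), from 5.49, 5.76 and 4.41 CPM to 0.236 and 0.515 CPM, with 3.61 and 3.63 CPM in KO LPS. Of 19 MHC class I genes, 9 were at the resting level, none was far higher and NLRC5 alone was far lower. Their 12 calls higher and 4 lower became 5 and 8 with library size alone. Reads shared between HLA genes make their counts uncertain.

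Most microglial genes were back at, or never far from, the resting level. Of 21 homeostatic genes, 13 were at the resting level, none was far higher and 3 were far lower. At rest were 28.7% of all genes, but 4371 of the 10151 protein-coding genes with a mean of at least 5 CPM. Low levels widen intervals, so that larger share is the closer one for lists of well-expressed genes. MERTK, a receptor for dying cells, was at 163, 155 and 161 CPM in KO, at 69.3 and 62.7 CPM in KO LPS, and at 168 and 171 CPM in KO LPS BMS (0.08, interval -0.04 to 0.21). TREM2, a lipid receptor, was at 308, 318 and 312 CPM in KO, 166 and 191 CPM in KO LPS and 283 and 269 CPM in KO LPS BMS (-0.18, interval -0.32 to -0.04). CX3CR1, the fractalkine receptor, was at 55.9 ± 0.887 and 56.7 ± 0.0845 CPM. The purinergic receptor P2RY12 remained lower, at 12.5, 11.7 and 10.7 CPM in KO against 5.99 and 5.41 CPM (-1.04 ± 0.15, adjusted p = 2.8e-06), above the 1.93 and 1.78 CPM of KO LPS. The difference was under 2-fold without KO replicate 1 or KO LPS BMS replicate 2. The other far-lower members were its relatives P2RY13 (-2.34 ± 0.08) and GPR34 (-1.22 ± 0.07). With library size alone 15 of the 21 were called lower, against 8.

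Disease-associated microglial genes held 12 of 21 at the resting level, with CD83, the growth factor CSF1 (1.51 ± 0.09) and the lipase LPL (1.54 ± 0.05) far higher and none far lower. APOE, a lipid carrier, varied too much to be placed: 6725, 8330 and 7554 CPM in KO and 10323 and 7446 CPM in KO LPS BMS (0.24 ± 0.26). Complement and Fc gamma receptor genes had 12 of 23 at the resting level, C1R far higher (1.17) and the anaphylatoxin receptor C5AR2 far lower (-2.03 ± 0.12). Lysosomal and phagocytic genes had 23 of 30 at the resting level, with only CTSK (1.04) and the cholesterol transporter NPC1 (1.35 ± 0.05) far higher and none far lower. Their 18 calls higher and 1 lower became 7 and 7 with library size alone. Nuclear-encoded respiratory chain genes had 18 of 26 at the resting level and none far from it.

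Genes that LPS moved in WT cells and that were at the resting level after both treatments included alarmins and matrix genes. SLC16A7, a transporter of lactate and pyruvate, had the largest rise in WT among them (3.80). It was at 5.16, 3.75 and 4.25 CPM in KO, 13.9 and 11.6 CPM in KO LPS, and 4.18 and 4.31 CPM in KO LPS BMS. THBS1, the matrix protein thrombospondin 1 (chromosome 15, 39581079 to 39599466), was at 319, 323 and 318 CPM in KO, 1157 and 1143 CPM in KO LPS, and 431 and 414 CPM in KO LPS BMS. Its treated libraries lay above every resting one, yet within 1.5-fold (0.40, interval 0.30 to 0.51). The calprotectin subunits S100A8 and S100A9 were at 66.8 ± 2.80 and 258 ± 2.28 CPM in KO, at 170 ± 10.9 and 602 ± 24.9 CPM in KO LPS, and at 74.1 ± 1.59 and 287 ± 28.3 CPM in KO LPS BMS. PTPN2, a phosphatase that dampens cytokine signalling, was at 50.9, 42.2 and 42.5 CPM in KO and 48.0 and 53.6 CPM in KO LPS BMS, against 156 and 151 CPM in KO LPS, and its resting and treated libraries overlapped. LDLRAD3 (0.03, interval -0.19 to 0.24) and the kinase gene MAST4 (0.13, interval -0.17 to 0.43) lay there too. SLC16A7 and MAST4 moved to between without KO LPS BMS replicate 2. HAMP (hepcidin, -0.27), GK (glycerol kinase, 0.41) and TREML4 (-0.21) moved to between in 6, 7 and 9 of 12 other fits, the fits without either KO LPS BMS library among them.

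Among genes that LPS lowered in WT, the potassium channel subunit KCNAB1 had the largest fall (-2.39) of those at the resting level, with 7.83 ± 0.436 CPM in KO, 3.31 ± 0.613 CPM in KO LPS and 8.34 ± 0.315 CPM in KO LPS BMS. SLCO2B1, an organic anion transporter, was at 1191, 1241 and 1228 CPM in KO, 453 and 478 CPM in KO LPS, and 1011 and 979 CPM in KO LPS BMS. It lay below rest in both treated libraries but within 1.5-fold (-0.29, interval -0.39 to -0.19). GPR155 (-0.28, interval -0.45 to -0.12) and the syndecan SDC3 (-0.33, interval -0.49 to -0.17) were of the same kind. For the perlecan gene HSPG2 the groups overlapped (-0.12, interval -0.39 to 0.15, not called). PIK3IP1, an inhibitor of PI3 kinase, lay above rest by 0.29 (interval 0.13 to 0.46), with 39.6 ± 2.78 CPM in KO and 48.6 ± 1.16 CPM in KO LPS BMS.

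**Figure D3:**
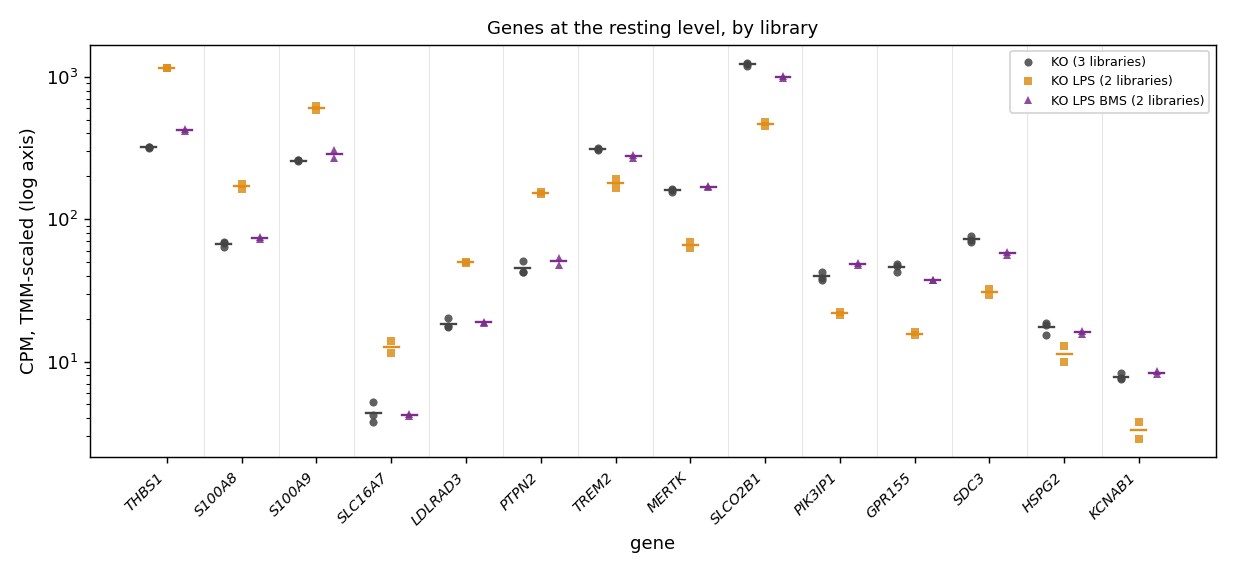
CPM on a log axis for 14 genes at the resting level in KO LPS BMS vs KO, with 1 symbol per library of KO, KO LPS and KO LPS BMS and a short line at each group mean. KO LPS lies apart in genes such as MERTK (69.3 and 62.7 CPM), while KO LPS BMS (168 and 171 CPM) lies beside KO (155 to 163 CPM).

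A few LPS-responsive genes ended on the far side of the resting level. Among the genes lowered by LPS in WT, 26 were far higher here. Only ICAM5, JAG1 and SAMD4A of these had a symbol and reached a mean of 5 CPM in WT or WT LPS. ICAM5, an adhesion molecule that fell with LPS in WT (-1.06), was at 5.55, 7.27 and 5.54 CPM in KO, 4.13 and 7.53 CPM in KO LPS, and 75.2 and 62.3 CPM in KO LPS BMS (3.48 ± 0.18, adjusted p = 1.3e-10). The Notch ligand JAG1 also fell in WT (-1.66) and was at 58.7 ± 3.66 CPM in KO and 134 ± 7.86 CPM in KO LPS BMS. SAMD4A, an RNA-binding repressor, fell in WT (-1.83) and rose from 14.1 ± 1.28 to 30.6 ± 3.36 CPM. In the other direction the receptor CD93 rose with LPS in WT (1.09) and fell here from 20.5, 22.3 and 25.7 CPM to 6.78 and 7.21 CPM (-1.71 ± 0.14). GPR85, an orphan receptor, went from 24.4 ± 1.75 CPM in KO to 50.05 ± 0.637 CPM in KO LPS and 8.88 ± 1.82 CPM in KO LPS BMS. KCNJ15 (-1.22 ± 0.25), PLEKHA5 (-1.16 ± 0.21) and TMEM185B (-1.13 ± 0.14) were also far lower, though TMEM185B was under 2-fold without KO LPS BMS replicate 2, as was the Wnt receptor FZD7 (-1.41 ± 0.41), whose call was lost without KO LPS BMS replicate 2.

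Many far genes had no 2-fold LPS change in the same direction: 773 of the 1589 far higher did not rise that far in WT or KO, and 1182 of the 2038 far lower did not fall that far. These counts include the genes on the far side just described. IRF8, a transcription factor of the myeloid lineage, was at 194, 192 and 202 CPM in KO, 205 and 226 CPM in KO LPS, and 815 and 776 CPM in KO LPS BMS (2.02 ± 0.06, adjusted p = 1.96e-18). HEXIM1 (chromosome 17, 45148502 to 45152101), which restrains the elongation kinase of CDK9 and cyclin T, was at 77.4, 80.6 and 78.8 CPM in KO, 75.2 and 79.7 CPM in KO LPS, and 12.1 and 11.5 CPM in KO LPS BMS. It fell 6.69-fold (-2.74 ± 0.08, adjusted p = 1.12e-17), with no overlap with any KO or KO LPS library. Of the splicing factor genes, SRSF3 fell from 191 ± 2.73 to 64.8 ± 1.79 CPM (-1.56 ± 0.06) and HNRNPD from 194 ± 7.89 to 59.6 ± 1.43 CPM (-1.70 ± 0.06). In that list 14 of 25 rose, 8 fell and 10 were at the resting level, against 30.3%, 32.4% and 28.7% of all genes.

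The largest falls from rest were partly LPS responses. PDK4, a kinase that restrains pyruvate oxidation, was at 25.0, 21.1 and 23.3 CPM in KO and at 0.709 and 0.644 CPM in KO LPS BMS, 33.9-fold lower (-5.08 ± 0.34, adjusted p = 3.49e-15). With LPS alone it was at 1.23 and 0.889 CPM, so that both LPS groups stood far below rest. The fatty acid receptor FFAR4 (-4.27 ± 0.30) and the transcription factor ETV1 (-3.60 ± 0.43) were also far lower in both. CXCR2, a receptor for CXCL8, fell from 24.01, 19.3 and 20.8 CPM to 1.97 and 2.00 CPM (-3.42 ± 0.20), beside 8.06 and 7.32 CPM in KO LPS. Among the largest rises that were already large with LPS were TNFAIP6 (6.32 ± 0.11), a hyaluronan-binding protein, and HCAR2 (6.61 ± 0.41), a receptor for niacin and butyrate whose near-identical copy HCAR3 makes its count uncertain. ITGB8, an integrin subunit, reached 63.2 and 83.7 CPM from 1.36, 1.17 and 1.02 CPM (5.96 ± 0.21), with 26.6 and 30.6 CPM in KO LPS. EDN1, endothelin 1, had 3 counts in KO and 229 in KO LPS BMS (count ratio 141, 95% counting interval 47.5 to 687). SLC7A11-AS1 (6.29 ± 0.97) lies over the cystine transporter gene SLC7A11, which rose from 15.4 ± 0.578 to 423 ± 26.6 CPM (4.78 ± 0.09), and reads of the pair cannot be told apart where the strand is not used.

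Immediate early genes split. Of 26 immediate early and AP-1 genes, 14 rose and 7 fell, with 10 far higher, 6 far lower and 3 at the resting level. EGR1, a growth-factor-induced transcription factor, was at 153, 125 and 125 CPM in KO, 115 and 94.1 CPM in KO LPS, and 15.1 and 12.3 CPM in KO LPS BMS (-3.31 ± 0.20, adjusted p = 4.41e-07). FOS (-1.74 ± 0.14) and NR4A1 (-1.25 ± 0.17) were far lower too. The AP-1 gene JUN (1.59 ± 0.18), MAFF (3.40 ± 0.15), ATF3 (2.66 ± 0.08), KLF6 (2.20 ± 0.05) and MYC (2.07 ± 0.11) were far higher. The promoter of EGR1 (chr5:138465229-138465478, plus) is shown with its 2 matches to the CArG box, the binding sequence of serum response factor, in capitals.
EGR1: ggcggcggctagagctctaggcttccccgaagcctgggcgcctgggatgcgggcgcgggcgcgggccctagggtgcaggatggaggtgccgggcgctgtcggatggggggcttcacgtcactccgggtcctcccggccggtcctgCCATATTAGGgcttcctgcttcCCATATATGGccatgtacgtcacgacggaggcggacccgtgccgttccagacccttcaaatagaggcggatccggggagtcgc
That box was matched in 2 of 19 promoters of the list and in 111 of the 11306 tested genes with a promoter (0.982%). Its share was 0.596% of the far-lower and 1.54% of the far-higher promoters. SRF, the other gene of the list with a match, was called higher (0.96). Myeloid transcription factors were mixed, with 12 of 21 higher and 4 lower. CEBPA, which drives granulocyte and monocyte differentiation, fell from 32.2, 44.3 and 34.8 CPM to 5.20 and 3.41 CPM (-3.13 ± 0.22), MAF fell by 1.54 ± 0.07 and ZEB2 rose by 1.51 ± 0.05. Of the 9 MEF2 and class IIa histone deacetylase genes, MEF2C and HDAC5 (-1.09 ± 0.08) were far lower and 5 were at the resting level.

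Cell-cycle genes were mostly below rest, by less than 2-fold. Of 36 genes of G1/S and DNA replication, 30 fell and 2 rose, 10 were far lower and 5 at the resting level (median -0.62). MCM3, a subunit of the replicative helicase, fell from 96.5, 94.5 and 100.3 CPM to 31.4 and 31.7 CPM (-1.62 ± 0.07), with 61.0 and 54.5 CPM in KO LPS. PRIM1, a primase subunit, fell 4.99-fold (-2.32 ± 0.18), and the sliding clamp PCNA fell from 148 ± 1.03 to 71.9 ± 1.28 CPM (-1.04 ± 0.06). The exceptions were CCND1 (1.15 ± 0.07) and CCND2 (0.82 ± 0.07), cyclins of early G1. Of 35 G2/M genes, 28 fell and none rose, 8 were far lower and 13 at the resting level (median -0.57). TOP2A, which untangles chromosomes, fell from 219, 211 and 219 CPM to 86.0 and 78.5 CPM (-1.40 ± 0.08). The proliferation marker MKI67 (-0.19, interval -0.36 to -0.03) and CDK1 (-0.12, interval -0.28 to 0.04) were at the resting level. Homologous recombination and Fanconi genes fell in 20 of 26 and rose in 3, with BRCA1 at 36.4 ± 0.151 CPM in KO and 12.2 ± 0.98 CPM in KO LPS BMS (-1.59 ± 0.11).

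The promoter of MCM6 (chr2:135876444-135876693, minus), a helicase subunit that fell from 86.1 ± 3.65 to 38.0 ± 2.02 CPM (-1.18 ± 0.07), is shown because it carries 2 matches to the E2F motifs TTTCCCGC or TTTGGCGC on either strand, in capitals.
MCM6: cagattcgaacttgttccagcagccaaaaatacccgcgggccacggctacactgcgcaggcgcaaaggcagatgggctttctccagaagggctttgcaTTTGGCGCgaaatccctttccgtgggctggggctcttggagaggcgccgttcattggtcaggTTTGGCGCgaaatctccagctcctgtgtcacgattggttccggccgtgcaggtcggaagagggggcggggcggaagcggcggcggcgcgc
One or the other motif was matched in 14 of 29 promoters of the G1/S list and in 2.95% of the tested genes with a promoter. Among all far-lower promoters the share was 2.38%. The cell-cycle homology region TTTGAA was matched in 15 of 28 promoters of the G2/M list, against 8.66% of the tested genes with a promoter. Its share was 10.9% of the far-lower and 10.4% of the far-higher promoters.

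Of 32 CDKs, cyclins of transcription and CDK inhibitors, 18 rose and 7 fell, and 13 were at the resting level. With library size alone the split was 10 and 12. CDK2 itself was at 14.6, 15.5 and 15.3 CPM in KO and 20.3 and 17.3 CPM in KO LPS BMS, at the resting level (0.31, interval 0.07 to 0.54). It moved to between with the DESeq2 Wald test and without KO replicate 2 or KO LPS BMS replicate 2. Its call as higher (adjusted p = 0.0231, edgeR) was lost with library size alone, with upper-quartile factors, and without KO replicate 1 or KO LPS BMS replicate 1. CDK6, a kinase of G1, rose from 45.9 ± 1.503 to 221 ± 21.1 CPM (2.27 ± 0.08), with 115 ± 9.89 CPM in KO LPS. The cyclin genes CCNT1 (1.505 ± 0.06) and CCNL1 (1.68 ± 0.06) were far higher, and CDK9 was higher (0.98). Among inhibitors, CDKN2B (2.30 ± 0.11) was far higher, CDKN1C (-1.99 ± 0.16), CDKN2C (-2.07 ± 0.18) and HEXIM1 far lower, and CDKN1A, which encodes p21, at the resting level (0.19, interval 0.05 to 0.32). Histone genes fell in 9 of 14 and rose in none, with H1-10 (-2.10 ± 0.26) among the 5 far lower. Counts of histone genes with near-identical copies are uncertain. Of 25 p53 targets, 10 rose, 5 fell and 10 were at the resting level, not far from the 30.3%, 32.4% and 28.7% of all genes.

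Cholesterol and fatty acid synthesis genes were mostly higher: 20 of 26 rose and 3 fell, with 12 far higher, none far lower and 8 at the resting level (median 0.83). INSIG1, a sterol sensor and SREBP target, was at 144, 144 and 135 CPM in KO, 278 and 289 CPM in KO LPS, and 785 and 775 CPM in KO LPS BMS (2.47 ± 0.05, adjusted p = 1.79e-20). The lanosterol synthase gene LSS (1.92 ± 0.08) and HMGCS1 (1.85 ± 0.07) were far higher, while IDI1 was at the resting level (0.15). LXR targets and lipid efflux genes had 7 of 14 at the resting level, 4 higher and 3 lower. Oxidative stress and iron genes rose in 14 of 21 and fell in 2. NFE2L2, the NRF2 transcription factor, rose by 2.66 ± 0.06, the transferrin receptor TFRC by 2.07 ± 0.06, and SLC40A1, the iron exporter, fell by 1.75 ± 0.09.

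Glycolysis and HIF genes had 13 of 30 at the resting level, 18 higher and 6 lower (median 0.33). Of all genes 28.7% were at rest, 30.3% higher and 32.4% lower. At rest were 4371 of the 10151 protein-coding genes with a mean of at least 5 CPM. Library size alone shifted the median of all genes by -0.336, about the size of this list median. The glucose transporter SLC2A3 rose from 141 ± 7.81 to 723 ± 6.68 CPM (2.36 ± 0.06), and LDHA was at the resting level (-0.02, interval -0.13 to 0.08), beside 699 ± 29.9 CPM in KO LPS and 425 ± 11.2 CPM in KO. Of 21 genes of itaconate, kynurenine, prostaglandin and NAD metabolism, 11 rose and 6 fell, with 9 far higher. PTGS2, the inducible cyclooxygenase, went from 14.3, 12.1 and 13.3 CPM to 127 and 135 CPM (3.31 ± 0.10), and NAMPT, which makes NAD, from 50.7 ± 1.62 to 526 ± 6.65 CPM (3.38 ± 0.05), with 1576 ± 34.9 CPM in KO LPS. ACOD1, the itaconate enzyme, had 2 counts in KO and 58 in KO LPS BMS (count ratio 53.4, 95% counting interval 14.1 to 452), beside 24.5 ± 1.65 CPM in KO LPS. Matrix and protease genes rose in 21 of 27 and fell in 2. CD44, the hyaluronan receptor, went from 540 ± 4.30 to 3251 ± 9.38 CPM (2.59 ± 0.04), PLAU fell by 1.52 ± 0.09, and MMP9 was at the resting level (-0.01, interval -0.28 to 0.26).

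Of 22 ATF4 and unfolded protein response genes, 9 were higher, 6 lower and 6 at the resting level, shares near those of all genes (30.3%, 32.4% and 28.7%). Of 15 BCL2 family genes 8 rose and 3 fell, against 30.3% and 32.4% of all genes, with the survival gene BCL2A1 at 2.96 ± 0.06. The list median was 0.33, about the size of the shift of -0.336 with library size alone. Metallothionein and zinc transporter genes rose in 5 of 8 and fell in none, with the metal-sensing factor MTF1 at 2.45 ± 0.08.

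**Figure D4:**
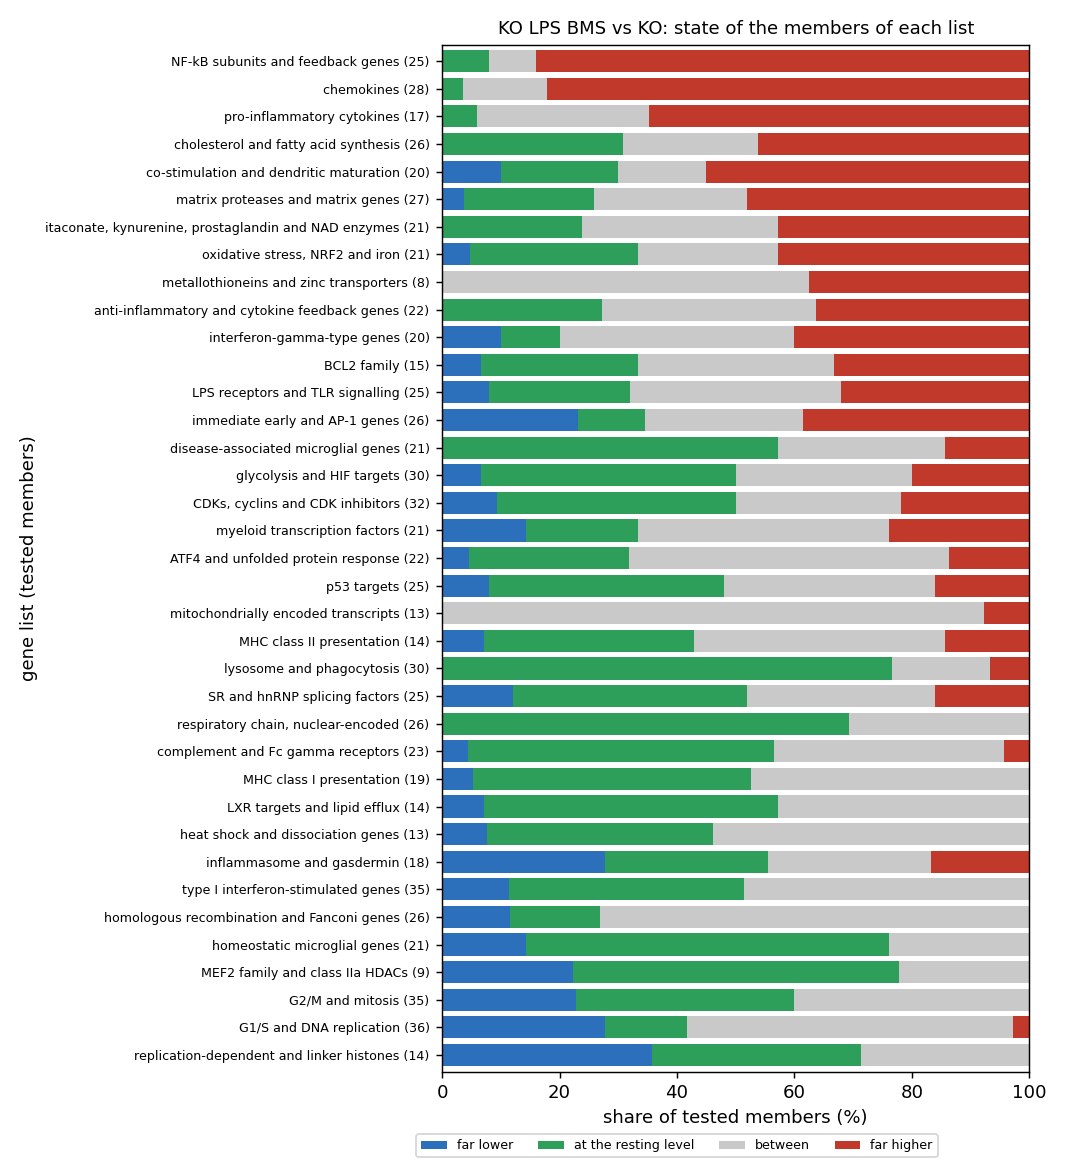
Bars give, for each pathway or quality list, the share of its tested members (number in brackets) that were far lower, at the resting level, between or far higher in KO LPS BMS vs KO. Lists are ordered by the far-higher share minus the far-lower share of their members: the NF-kB genes (21 of 25 far higher) stand at the top and histones (5 of 14 far lower) at the bottom.

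Several of the far-lower genes named above have no introns. CEBPA, HEXIM1, MAGEF1 (-3.29 ± 0.16) and CCDC8 (-4.01 ± 0.44) are single-exon genes in GENCODE release 29, which led to a count by exon number that was chosen after these values were seen and carries no test. Of 13114 protein-coding genes tested, 218 had a single exon in every annotated transcript. Of those, 63 (28.9%) were far lower, against 1515 (11.6%) of all protein-coding genes, while 27 (12.4%) were at the resting level, against 4462 (34%). Their median log2 fold change was -0.56 in KO LPS BMS against KO, -0.05 in KO LPS against KO and -0.17 in WT LPS against WT. Low levels widen intervals, so the count was repeated for genes with a mean of at least 5 CPM in the 5 libraries: 30 of 121 single-exon genes (24.8%) were far lower, 40 of 246 with 2 exons (16.3%), 147 of 1705 with 3 to 5 (8.62%), 236 of 3272 with 6 to 10 (7.21%) and 403 of 4807 with 11 or more (8.38%). Far-higher shares were 9.09% with a single exon and 6.93% with 11 or more. The pattern was that of protein-coding genes: over all biotypes, 1329 single-exon genes had a median of 0.065, against -0.06 for all genes, with 16% far higher (9.92% of all) and 17.7% far lower (12.7% of all).

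**Figure D5:**
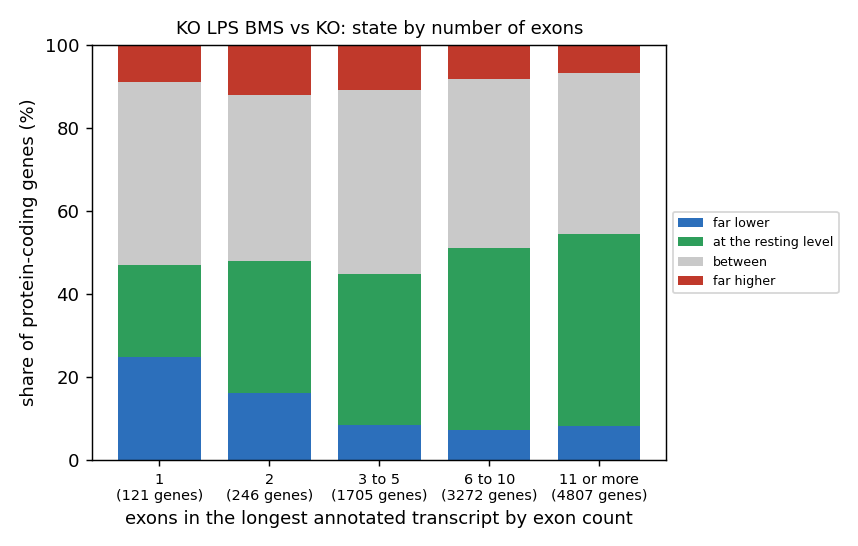
Stacked bars give the share of protein-coding genes with a mean of at least 5 CPM in each state of KO LPS BMS vs KO, by the highest number of exons among a gene's annotated transcripts. The far-lower share goes from 24.8% of 121 single-exon genes to 8.38% of 4807 genes with 11 or more exons.

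Markers of other cell types were followed as lists, and their part in the results was not tested. Monocyte and border macrophage markers summed to 5400 to 5482 CPM in KO and 5692 to 5970 CPM in KO LPS BMS, with 11 of 16 at the resting level. Granulocytic and mast cell markers summed to 1065 to 1101 and 1194 to 1233 CPM (ELANE at 0), lymphocyte markers to 803 to 812 and 889 to 915 CPM (MS4A1 at 0), and progenitor markers to 170 to 186 and 234 to 253 CPM. Of the 6 progenitor markers tested, KIT (1.14) and GATA2 (0.47) rose, HOXA9 (-2.12) and MYB (-0.39) fell, and the median was -0.30. Endothelial markers were lower in sum, 562 to 596 against 470 to 478 CPM (EMCN at 0). Of the 6 tested, 4 fell and 1 rose. Pluripotent markers were also lower in sum, 57.9 to 59.8 against 26.9 to 29.7 CPM (NANOG, LIN28A and TDGF1 at 0). Only 3 of these 10 were tested and all 3 fell, while POU5F1 and SOX2 were among those too low to test. Mesenchymal markers ranged from 52.3 to 104.7 CPM in KO and 55.1 to 57.3 CPM in KO LPS BMS, erythroid ones from 34.5 to 36.9 and 38.4 to 39.8 CPM (HBA1, HBA2, HBB and HBG1 among those at 0), and neuronal ones from 4.81 to 6.001 and 4.05 to 4.33 CPM (STMN2, DCX and NEFL at 0). Astrocyte and oligodendrocyte markers went in sum from 745 to 798 CPM to 964 to 993 CPM, with AQP4, ALDH1L1, MOG and SOX10 at 0. Of the 5 tested, SLC1A3 (49.3 ± 3.55 to 233 ± 3.11 CPM) and OLIG2 (4.21 ± 0.476 to 20.0 ± 1.80 CPM) rose, MBP fell (-0.58), and S100B (0.13) and OLIG1 (0.24) were not called. SLC1A3 made up most of the difference in the sum.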

How the data were processed

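RNA-seq was run on 12 libraries of H1-derived microglia-like cells made with the NEBNext Ultra RNA kit, per the labels' protocols. The authors deposited a table of whole-number read counts per Ensembl gene. The submitters' processing notes name CASAVA 1.7, Cufflinks and GRCh38. The sources used here give neither the aligner, the counter nor the strand setting. Of 57992 gene IDs, 16022 passed edgeR's filterByExpr. A robust quasi-likelihood fit (edgeR 4.0.16, limma 3.58.1, R 4.3.3) with TMM factors used all 12 libraries, which share 1 estimate of the spread, with Benjamini-Hochberg adjustment. Fitted intervals are 95%. The members and lists were chosen with earlier results of these data known. Genes named are MEF2C and a fixed panel, and the 12 largest rises and 12 largest falls with at least 5 CPM and no overlap. Also named are the 10 largest LPS rises and 10 largest LPS falls in WT that were at the resting level. On the far side, up to the 6 largest per direction were named, with at least 5 CPM in WT or WT LPS. In each list the 2 strongest per direction and the 2 narrowest at rest were named, with further list members. Alternatives were DESeq2 1.42.0, other scalings, no filter, fewer libraries, a replicate block and other thresholds. On simulated counts for KO LPS BMS against KO over 16022 genes, 50.7% of 67 genes changed 1.5-fold, 94% of 67 changed 2-fold and 92.4% of 66 changed 4-fold were called, and 66.8% of unchanged genes were placed at the resting level. Of the simulated calls 7.6% were false. Only 200 genes were changed there, in both directions, against 10052 called in the data. The simulation therefore cannot show how the scaling behaves when most genes change.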

Additional observations from a re-analysis of the deposited data

How the results depend on the processing

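With library size alone 2852 genes were called higher and 8071 lower, 1017 were far higher and 3511 far lower, and 1575 genes lowered by LPS in WT were far lower. Of all genes called in the main fit, 94 were called in the opposite direction under it. Among the genes chosen by the naming rule and called in the main fit, these changed sign on the log2 scale: CDK2 (-0.031), CDKN1A (-0.15), S100A9 (-0.18), PIK3IP1 (-0.043), STAT2 (-0.067), MYD88 (-0.063), CD163 (-0.097), HLA-DMA (-0.14), C3 (-0.21), VSIG4 (-0.019), KLF10 (-0.071), IRF2 (-0.045), PKM (-0.17), ATP5F1B (-0.098), PLTP (-0.050), FTL (-0.024), CYBB (-0.064), FN1 (-0.066) and HNRNPU (-0.033). Genes not called in the main fit were not searched for a change of sign. The cause was not tested. With DESeq2's Wald test 12 genes lowered by LPS in WT were far higher. A TREAT test against 1.2-fold called 3734 genes higher and 4024 lower, and a 4-fold threshold left 549 and 481. A 1.3-fold margin placed 2211 genes at the resting level, 46 of them raised and 52 lowered by LPS in WT; a 2-fold margin placed 8676, with 283 raised (291 between) and 509 lowered (556 between). With LPS genes chosen in KO, the raised ones were far lower in 9 cases, at rest in 44 and between in 291, and the lowered ones far higher in 7, far lower in 451, at rest in 24 and between in 268. With a 4-fold choice in WT, the raised ones were far higher in 396, far lower in 3, at rest in 12 and between in 97, and the lowered ones far higher in 8, far lower in 228, at rest in 7 and between in 159. Leaving out 1 library at a time gave 4398 to 4666 genes called higher, 4248 to 4900 lower, 1530 to 1623 far higher, 1833 to 2003 far lower and 3851 to 4326 at the resting level. Genes raised by LPS in WT were then far higher in 727 to 745 cases, far lower in 17 to 25, at rest in 76 to 91 and between in 480 to 557. Those lowered were far higher in 15 to 31, the lowest without KO LPS BMS replicate 1, far lower in 696 to 780, at rest in 115 to 156 and between in 921 to 1054. A library left alone in KO LPS BMS is assumed to vary like the other groups. Same-numbered KO and KO LPS BMS libraries did not deviate together (correlations -0.05 and -0.08). With 2 KO LPS BMS libraries their deviations are mirror images, so these values cannot show whether the numbers pair cultures. With the replicate number as a block 4673 genes were called higher, 4878 lower and 4385 were at the resting level. Depth limits genes near the floor of 3 counts, whose fold changes are bounds or carry wide counting intervals.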
